A study of Mus musculus with 6 samples.

Results

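Interferon-inducible GTPase genes were followed in mouse eosinophils cultured with extracellular vesicles (EVs) secreted by activated T helper 2 (TH2) cells. The set comprised 10 genes, all of which were listed among the 16254 genes of the count table. They were 5 guanylate-binding protein genes (*Gbp2*, *Gbp3*, *Gbp5*, *Gbp7* and *Gbp9*), 3 immunity-related GTPase genes (*Irgm1*, *Irgm2* and *Igtp*) and 2 entries of the giant GTPase family (*Gvin1* and the pseudogene *Gvin-ps4*). The genes were matched by symbol. The set was selected on the counts of these same cultures, with the differences between EV- and sham-treated cells already known, including that *Gbp3* and *Gvin-ps4* had nearly no reads in sham-treated cells. Their levels and changes are therefore a description, and where a call from the fit across all genes is given for a member it is no independent evidence. Eosinophils of C57BL/6 genotype had been grown from bone marrow with FLT3 ligand and stem cell factor and then IL-5. They were incubated for 24 h with 5000000000 EVs/ml from TH2 cells restimulated through CD3 and CD28 in the presence of IL-2 (EV-treated, n = 3) or with the same volume of sham control (sham-treated, n = 3), which is medium that held no cells and was carried through the same isolation. Poly(A) RNA of each culture was sequenced in bulk.

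Interferon-inducible GTPases are large GTP-binding proteins of cell-autonomous immunity that most cells make at low levels and raise when interferon activates STAT and IRF transcription factors. Guanylate-binding proteins (GBPs) coat bacteria and parasite vacuoles and help to open them to the cytosol and to inflammasome caspases. Immunity-related GTPases (IRGs) load onto parasite vacuoles, while the IRGM class (*Irgm1*, *Irgm2* and *Igtp*, also called Irgm3) sits on the cell's own membranes and keeps the other IRGs inactive there. The giant GTPases (GVINs) are very large relatives whose role is little defined.

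The estimated counts summed to between 23697620 and 37874426 per culture, so that the spread between the 3 cultures of a group, rather than counting error, set the precision for all but genes with few reads. Eosinophil markers, which include the granule protein genes *Epx* and *Prg2*, were abundant in every culture and summed to 30527 to 38453 CPM (counts per 1000000 of the TMM-scaled library) in sham-treated and 43548 to 48651 CPM in EV-treated cells. Of the 12 eosinophil markers, 8 were called higher with EVs and none lower. Of all genes tested, 12.1% were called higher and 11.6% lower, which is the background for the marker calls below as well. The 12 macrophage markers summed to 1919 to 2805 CPM in sham-treated and 1352 to 1538 CPM in EV-treated cultures, with 9 of them lower and 1 higher at an adjusted p under 0.01 (edgeR). The higher one, *Adgre1*, had 21326 ± 309.4 normalized counts with sham and 32764 ± 727.3 with EVs (SD, n = 3). It made up most of the sum with EVs, which therefore hides much of the fall of the others. The 9 lower markers had log2 fold changes from -1.31 (*Csf1r*) to -3.71 (*Apoe*). The 7 T cell markers in the table summed to 11.24 to 27.68 CPM with sham and 2.169 to 4.166 CPM with EVs. With sham, most of that sum was *Cd28*, the 1 T cell marker called, at 559.4 ± 232.1 normalized counts with sham and 42.4 ± 13.69 with EVs (SD, n = 3; log2 -3.70, adjusted p = 3.69e-05). The T cell receptor component *Cd3d* had 38.26 ± 30.03 with sham and 48.44 ± 19.18 with EVs. The 7 dendritic cell markers summed to 160.6 to 181.5 and 168.7 to 206.6 CPM, and the 4 B cell markers to at most 4.777 CPM in any culture. The 7 mast cell and basophil markers summed to 73.42 to 108 CPM and to 210.3 to 265.6 CPM, with 4 called higher and *Tpsb2* at 3 counts or fewer throughout. The 9 neutrophil markers summed to 580.6 to 666.7 and 610.9 to 726.3 CPM, but 2 of them were called higher (*Ly6g*, log2 2.65, and *Cxcr2*, 1.87) and 4 lower (*S100a8*, *S100a9*, *Camp* and *Ltf*, from -0.90 to -2.02). In such bulk samples fewer cells of a type and less RNA per cell cannot be told apart, and the part of these other cells in the results was not tested. The macrophage sum and *Cd28* were lower in the EV-treated cultures. The eosinophil sum and the mast cell and basophil sum were higher there, as were most of the GTPase genes.

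The GTPase genes lie in clusters. In GENCODE vM21 (GRCm38), *Gbp5*, *Gbp7*, *Gbp3* and *Gbp2* stand in this order on the forward strand of chromosome 3, from chr3:142493978-142522344 (*Gbp5*) to chr3:142620602-142638008 (*Gbp2*), with *Gbp7* at chr3:142530342-142550149 and *Gbp3* at chr3:142560026-142573209. *Gbp9* lies on the reverse strand of chromosome 5 (chr5:105077630-105139539), inside the span annotated for *Gbp8* and overlapping that of *Gbp4*. *Irgm1* (chr11:48861968-48871683, reverse strand) lies apart from *Igtp* (chr11:58199556-58207591) and *Irgm2* (chr11:58199618-58222782), whose annotated spans overlap on the forward strand. *Gvin1* occupies chr7:106156556-106215326 on the reverse strand. *Gvin-ps4* is not a symbol of that annotation and no position is given for it.

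The sequence before the transcript start was examined as a description. Position and promoter sequence were not used by the rule that chose the genes. The family is named for its induction by interferon, however, so matches to interferon elements are no independent evidence. RefSeq promoter windows (GRCm38.p6) were matched by symbol for 7 of the 10 genes, and the 250 bases before the start were searched on both strands for 2 patterns. The first was GAAA, any 2 bases and GAAA, the core of the interferon-stimulated response element (ISRE) bound by IRF-containing complexes. The second was TTC, any 3 bases and GAA, the core of the gamma-activated sequence (GAS) bound by STAT dimers. The stretches that hold the matches are shown so that their order and spacing can be compared, 5′ to 3′ on the strand of the gene, with matches in capitals. The ISRE-type pattern on the opposite strand reads TTTC, 2 bases and TTTC, and the GAS-type pattern is the same on both strands.
Gbp2 (chr3:142620593-142620622, forward): aactcttttagTTTCACTTTCactgtctta
Gbp3 (chr3:142559934-142560025, forward): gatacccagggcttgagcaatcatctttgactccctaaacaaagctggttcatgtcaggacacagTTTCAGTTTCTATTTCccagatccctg
Gbp7 (chr3:142530226-142530335, forward): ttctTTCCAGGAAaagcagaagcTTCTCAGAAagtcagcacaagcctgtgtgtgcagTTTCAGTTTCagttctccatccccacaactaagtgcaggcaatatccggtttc
Gbp5 (chr3:142496684-142496899, forward): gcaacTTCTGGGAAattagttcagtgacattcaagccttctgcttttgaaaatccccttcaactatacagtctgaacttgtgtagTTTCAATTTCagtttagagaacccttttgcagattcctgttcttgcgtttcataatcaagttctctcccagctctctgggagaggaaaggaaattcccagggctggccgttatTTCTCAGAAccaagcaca
Irgm1 (chr11:48871428-48871457, reverse): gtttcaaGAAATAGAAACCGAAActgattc
Irgm2 (chr11:58214867-58214976, forward): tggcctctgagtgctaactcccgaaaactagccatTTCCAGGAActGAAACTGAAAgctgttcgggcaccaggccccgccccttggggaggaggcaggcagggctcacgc
Igtp (chr11:58199446-58199555, forward): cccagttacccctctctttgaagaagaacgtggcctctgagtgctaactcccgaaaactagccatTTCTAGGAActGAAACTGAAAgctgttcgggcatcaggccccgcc

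All 7 of these genes had at least 1 ISRE-type match, and 4 of them (*Gbp5*, *Gbp7*, *Igtp* and *Irgm2*) also had a GAS-type match. Of all 32851 windows, 2.98% held the first pattern, 7.02% the second and 0.332% both. Among 11 GTPase relatives outside the set (described below) whose windows were counted, 6 had the first pattern and 4 the second. Relatives on chromosome 18, *Iigp1* among them, were left out of this count. In *Gbp2*, *Gbp3*, *Gbp7*, *Irgm1*, *Irgm2* and *Igtp* the ISRE-type match began within 64 bases of the start, whereas in *Gbp5* it began 165 bases before the start that RefSeq gives. The 2 GAS-type matches of *Gbp7* began 106 and 87 bases before the start and those of *Gbp5* 245 and 52 bases before it. In *Igtp* and *Irgm2* both patterns stood side by side, 2 bases apart, inside windows that shared an identical run of 55 bases. In *Gbp3* and *Irgm1* 2 overlapping ISRE-type matches formed 1 longer run. A second RefSeq window of *Gbp3*, for a start further downstream, held no match to either pattern. The RefSeq starts of *Gbp2*, *Gbp3*, *Gbp5*, *Irgm1* and *Irgm2* lie past the first base of their GENCODE spans. The distances given for these genes therefore depend on the start used. The stretch shown for *Irgm1* falls in an exon of an alternative *Irgm1* transcript, and 21 of the 30 bases shown for *Gbp2* fall in an annotated *Gbp2* exon. A match is a match of letters and shows no binding.

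**Figure D1:**
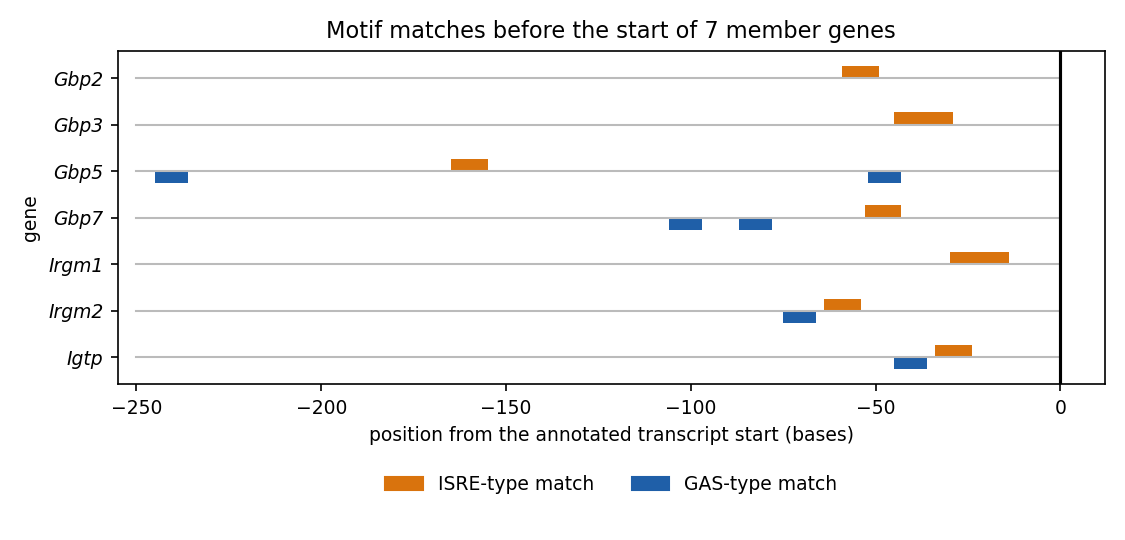
Positions of ISRE-type (orange) and GAS-type (blue) matches in the 250 bases before the annotated transcript start (position 0) of 7 member genes. The ISRE-type match of *Gbp5* begins 165 bases before the RefSeq start and those of the other 6 genes within 64 bases of it.

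Among the GBP genes, *Gbp2*, *Gbp3*, *Gbp7* and *Gbp9* were higher in each EV-treated culture than in any sham-treated culture, whereas *Gbp5* was not. Values are normalized counts, the rounded count divided by the library size after TMM scaling. *Gbp2*, a GBP that coats pathogen vacuoles, read 38.74, 44.12 and 36.45 with sham and 236.8, 264 and 218.5 with EVs. The groups lay far apart, at 39.77 ± 3.936 and 239.7 ± 22.91 (SD, n = 3), a 6.03-fold difference (log2 fold change 2.59, SE 0.222). *Gbp7*, which also acts at vacuoles and in the control of oxidative killing, read 343.3, 383.6 and 311.1 with sham and 1500, 1404 and 1438 with EVs. No sham-treated culture came near the EV range, and the means of 346 ± 36.35 and 1447 ± 48.46 gave a 4.18-fold difference (log2 2.06, SE 0.101).

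*Gbp9* had normalized counts of 101.8, 63.73 and 149.5 with sham and 356.7, 394.3 and 342.1 with EVs. The sham-treated cultures were the more scattered, and the means were 105 ± 42.95 and 364.3 ± 26.94, a 3.47-fold difference (log2 1.79, SE 0.269). *Gbp3* had no read in any sham-treated culture and 13.99, 30.86 and 33.94 normalized counts in the EV-treated cultures. EV replicate 1 was below the other 2. Against a floor of 3 counts per library, the EV mean of 26.26 ± 10.74 was at least 7.86-fold above sham, and the whole difference rests on 14, 36 and 39 reads. Its call at an adjusted p under 0.01 was lost without EV replicate 2 and without EV replicate 3.

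*Gbp5*, which promotes inflammasome assembly, differed from its neighbours. It read 210.8, 163 and 123.9 with sham and 187.8, 139.7 and 150.6 with EVs. All 3 EV values lay between the highest and the lowest sham value, the means were 165.9 ± 43.53 and 159.4 ± 25.23, and the log2 fold change was -0.06 (SE 0.242). In normalized counts per kilobase of transcript, *Gbp5* stood above *Gbp2* in sham-treated cells (33 to 56.1 against 14.5 to 17.5) and below it in EV-treated cells (37.2 to 50 against 86.8 to 105). The 4 chromosome 3 genes summed to 592.9, 590.7 and 471.4 with sham and 1938, 1839 and 1841 with EVs (3.39-fold), and the 6 entries of the chromosome 5 cluster, *Gbp9* included, to 182.9, 163 and 245.4 and to 588.4, 719.1 and 612.7 (3.25-fold). Between 3.1% and 18.3% of the 31-base words in the transcripts of each of the 5 GBP members recur in other genes, and for *Gbp2*, *Gbp3* and *Gbp9* the gene sharing most was another GBP gene (*Gbp2b*, *Gbp7* and *Gbp8*).

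The 3 IRGM genes were higher in every EV-treated culture, by smaller factors than *Gbp2* or *Gbp7*. *Irgm1*, which acts on lysosomes and mitochondria and restrains interferon responses, read 428.9, 265.9 and 387.6 with sham and 890.1, 896.6 and 906.1 with EVs. The EV-treated cultures were nearly identical, and the means were 360.8 ± 84.71 and 897.6 ± 8.008, a 2.49-fold difference (log2 1.31, SE 0.161). *Irgm2*, an IRGM protein of the Golgi that holds back caspase-11 activation, read 462.2, 616.4 and 601.5 with sham and 1637, 1858 and 1804 with EVs. It was 3.15-fold higher, at 1767 ± 115.1 against 560 ± 85.04 (log2 1.66, SE 0.117).

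*Igtp*, which encodes the IRGM protein of the endoplasmic reticulum and lipid droplets, read 257.7, 246.3 and 306.2 with sham and 765.3, 785.1 and 759.8 with EVs. No EV-treated culture came near the sham range, and the means of 270.1 ± 31.79 and 770.1 ± 13.31 gave a 2.85-fold difference (log2 1.51, SE 0.124). Of the 31-base words of *Igtp*, 15.9% recur in *Irgm2*. The sum of *Igtp* and *Irgm2*, which does not depend on how reads were divided between these genes, was 719.9, 862.8 and 907.6 with sham and 2403, 2643 and 2564 with EVs (3.06-fold). The 3 IRGM genes together summed to 1191 ± 90.9 and 3434 ± 127.4 (2.88-fold), against 3.36-fold for the sum of all 10 GBP entries in the table.

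**Figure D2:**
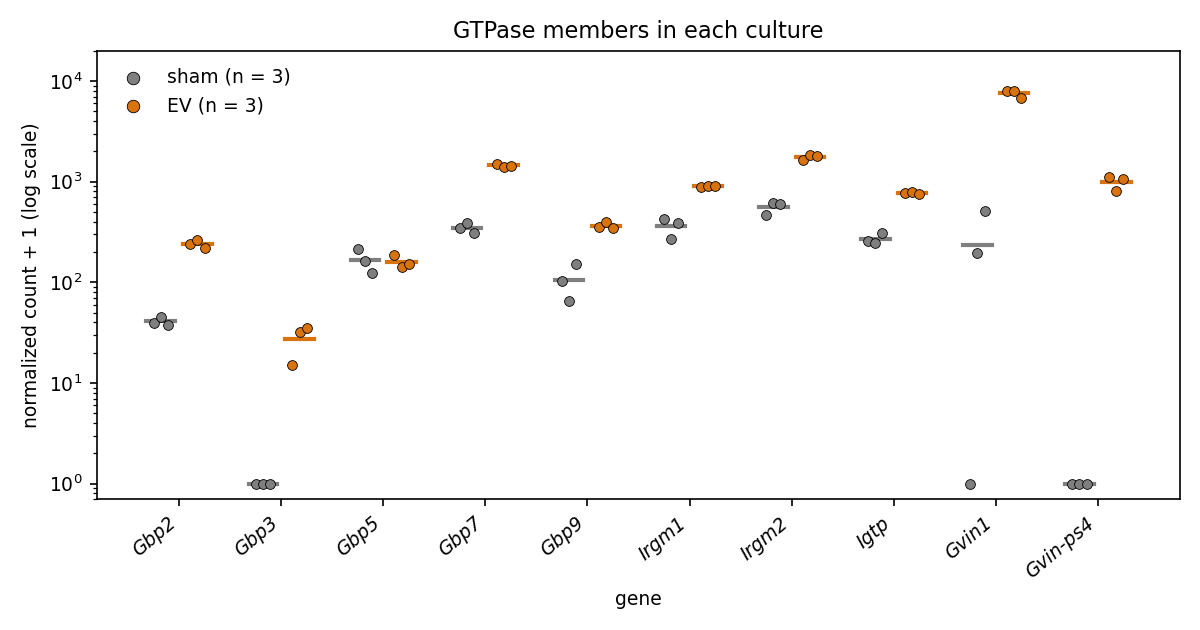
Normalized count plus 1 (log axis) of each of the 10 member genes in the 3 sham-treated (grey) and 3 EV-treated (orange) cultures, with bars at the group means. The groups overlap for *Gbp5* and are separate for the other 9 genes, and *Gbp3* and *Gvin-ps4* are at 0 in all 3 sham-treated cultures.

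With EVs, *Gvin1* carried more reads than any other member. *Gvin1* read 0, 196.1 and 507.9 with sham and 7931, 7945 and 6855 with EVs. The sham-treated cultures ranged from no read at all to 507.9, and the EV-treated cultures stood close together. Its means were 234.7 ± 256.1 and 7577 ± 625.3, a 32.3-fold difference (log2 5.08, SE 0.755), which DESeq2 did not call at an adjusted p under 0.01. *Gvin-ps4* had no read in any sham-treated culture and 1119, 811.7 and 1072 normalized counts with EVs (1001 ± 165.6), at least 299.5-fold above a floor of 3 counts per library.

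The *Gvin1* value depends on how reads were divided between near-identical copies. The annotated *Gvin1* transcript is 9005 bases long. Of its 31-base words, 99.7% recur in other genes and 99% in a single gene of the same chromosome, *Gm4070*. Shared sequence was not measured for *Gvin-ps4*. The table lists 10 *Gvin* entries, and their sum was 6258, 6205 and 6830 with sham and 35977, 35850 and 33552 with EVs. The means of 6431 ± 346.6 and 35127 ± 1365 differed 5.46-fold (log2 2.45), and the sum varied far less between sham-treated cultures than *Gvin1* did. The family as a whole was thus higher with EVs by a factor well below the one for *Gvin1* alone.

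The division of the sum differed between the groups. *Gvin1* held 0%, 3.16% and 7.44% of the *Gvin* sum in sham-treated cultures and 22%, 22.2% and 20.4% in EV-treated cultures. *Gvin3* held 50.5%, 46.4% and 45.9% with sham and 33.7%, 33.6% and 33.3% with EVs, and the pseudogene *Gvin-ps7* went from 39.4%, 40% and 40.3% to 27.5%, 26.9% and 27%. *Gvin2* went from 9.23%, 8.83% and 5.46% to 11.6%, 12.5% and 14.1%. *Gvin-ps4* held 0% and then 3.11%, 2.26% and 3.2%. In sham-treated cultures a higher *Gvin1* value stood beside a lower *Gvin2* value, and *Gvin1* and *Gvin2* together read 577.6, 743.9 and 880.9, against 12091, 12427 and 11587 with EVs (16.4-fold). Without *Gvin1* the other 9 entries still summed to 6196 ± 165.4 and 27550 ± 741.6 (4.45-fold).

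**Figure D3:**
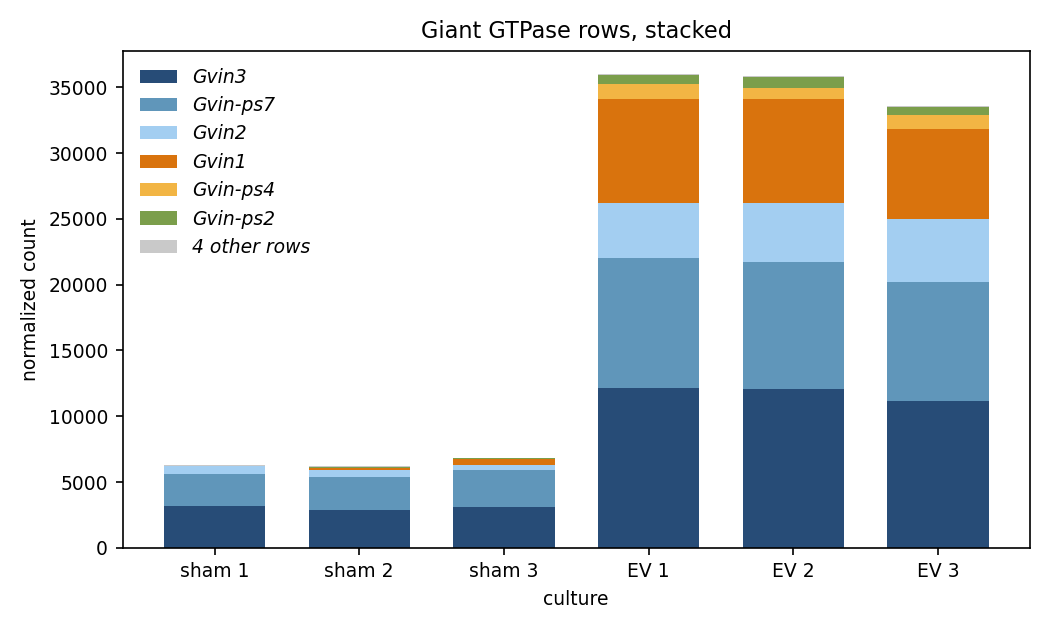
Normalized counts of the 10 *Gvin* entries, stacked, in each sham-treated and EV-treated culture. The stacks reach 6205 to 6830 with sham and 33552 to 35977 with EVs, and the *Gvin1* (orange) and *Gvin-ps4* (yellow) segments are a larger part of the EV stacks.

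Levels can be compared between genes only per length. Divided by the length in kilobases of the longest GENCODE vM21 transcript, which is known for 9 of the 10 genes, the EV-treated means in normalized counts per kilobase were 841 for *Gvin1*, 501 for *Irgm2*, 381 for *Igtp*, 258 for *Gbp7*, 234 for *Irgm1*, 95.3 for *Gbp2*, 72.2 for *Gbp9*, 42.4 for *Gbp5* and 9.79 for *Gbp3*. No 2 neighbours in this order overlapped over their 3 EV-treated cultures. In sham-treated cells the order per kilobase was *Irgm2* (159), *Igtp* (134), *Irgm1* (94.2), *Gbp7* (61.6), *Gbp5* (44.2), *Gvin1* (26.1), *Gbp9* (20.8) and *Gbp2* (15.8), with *Gbp3* at 0. There the cultures of *Irgm2* and *Igtp* overlapped, as did *Gbp7* with *Gbp5*, *Gbp5* with *Gvin1*, *Gvin1* with *Gbp9* and *Gbp9* with *Gbp2*. The IRGM genes were thus the most abundant members per length in sham-treated cells, and most genes below *Irgm1* overlapped a neighbour. For *Gvin1* the value per kilobase has the same limit of shared sequence as its count.

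Counted over the set, 10 of 10 genes passed the filter on low counts, 9 were called higher with EVs by edgeR, with a threshold on the adjusted p of 0.01, and none lower. Of all 13498 genes tested, 12.1% were called higher. That share depends on the scaling: 1632 genes were higher and 1572 lower with TMM, against 1036 and 2342 with library totals, under which 9 members were again higher and none lower. In 9 of the 10 genes all EV-treated cultures lay above all sham-treated cultures, which held for 24.8% of all genes tested. The median log2 fold change was 1.93, against -0.01 over all genes tested. Since the genes were chosen with this comparison known, these counts describe them and show nothing beyond the values above.

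Relatives of the set were listed from general knowledge, with earlier results of these data known, as 42 symbols of other GBP, IRG, giant GTPase and Mx genes. Of these, 30 were in the table and 24 were tested. With EVs 10 were higher and none lower at the same threshold (12.1% and 11.6% of all genes), and their median log2 fold change was 1.53. The 10 calls fell to 6 without EV replicate 1 or without EV replicate 2. Adjusted p-values here and below are from edgeR's quasi-likelihood test with Benjamini-Hochberg adjustment over all 13498 genes.

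In the chromosome 5 GBP cluster, *Gbp4*, whose protein modulates antiviral signalling, rose from 52.53 ± 12.67 to 169.1 ± 6.263 (SD, n = 3; log2 1.68, adjusted p = 0.000749). *Gbp8*, whose span overlaps it (log2 2.78, adjusted p = 0.0358), and *Gbp6*, further along the cluster (log2 1.02, adjusted p = 0.232) did not pass the threshold. The effector IRG genes, whose products disrupt parasite vacuoles, were low in sham-treated cells. *Iigp1* had no read with sham and 15.98, 42.86 and 12.19 normalized counts with EVs, at least 7.09-fold higher (adjusted p = 0.00481). *Tgtp2* read 14.42, 0 and 19.44 and then 221.8, 193.7 and 219.3 (log2 4.19, adjusted p = 0.000452). Since 90.5% of its words recur elsewhere, nearly all in *Tgtp1*, the sum of both is the safer value, at 14.53 ± 14.58 with sham and 238.2 ± 14.58 with EVs (16.4-fold).

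On chromosome 11, *Ifi47* (also called Irg-47) rose from 42.75 ± 10.26 to 121.7 ± 9.118 (log2 1.51, adjusted p = 0.00357), and *Gm12250*, listed in RefSeq as *Irgb10*, from 7.996 ± 5.706 to 53.28 ± 4.255 (log2 2.74, adjusted p = 0.00686). *9930111J21Rik2*, which lies near *Ifi47* and far from *Gm12250*, rose little, from 1865 ± 93.89 to 2528 ± 218.5 (log2 0.44, adjusted p = 0.00191). It shares 70.6% of its words with other genes. *Gbp4*, *Ifi47*, *Gm12250* and *9930111J21Rik2* had reads in all 3 sham-treated cultures. Of the giant GTPases, *Gvin2* (log2 3.15, adjusted p = 2.21e-07), *Gvin3* (1.95, 3.28e-08), *Gvin-ps2* (3.76, 3.22e-06) and *Gvin-ps7* (1.89, 4.87e-08) were called higher. Shared sequence was not measured for these 4.

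The 14 relatives that were tested and not called had log2 fold changes from -1.63 (*Irgc1*) to 3.07 (*Tgtp1*). *Irgq*, an IRG-like gene, had the highest normalized count among them in sham-treated cells, at 786.3 ± 66.02 with sham and 679.9 ± 21.32 with EVs (log2 -0.21, adjusted p = 0.133). *Mx1*, a dynamin-like antiviral GTPase, stayed low at 17.54 ± 22.49 and 22.84 ± 11.4 (log2 0.41, adjusted p = 0.81). Untested for low counts were *Gbp10*, *Gbp11*, *Gm4841*, *Gm12187*, *Gvin-ps1* and *Mx2*.

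**Figure D4:**
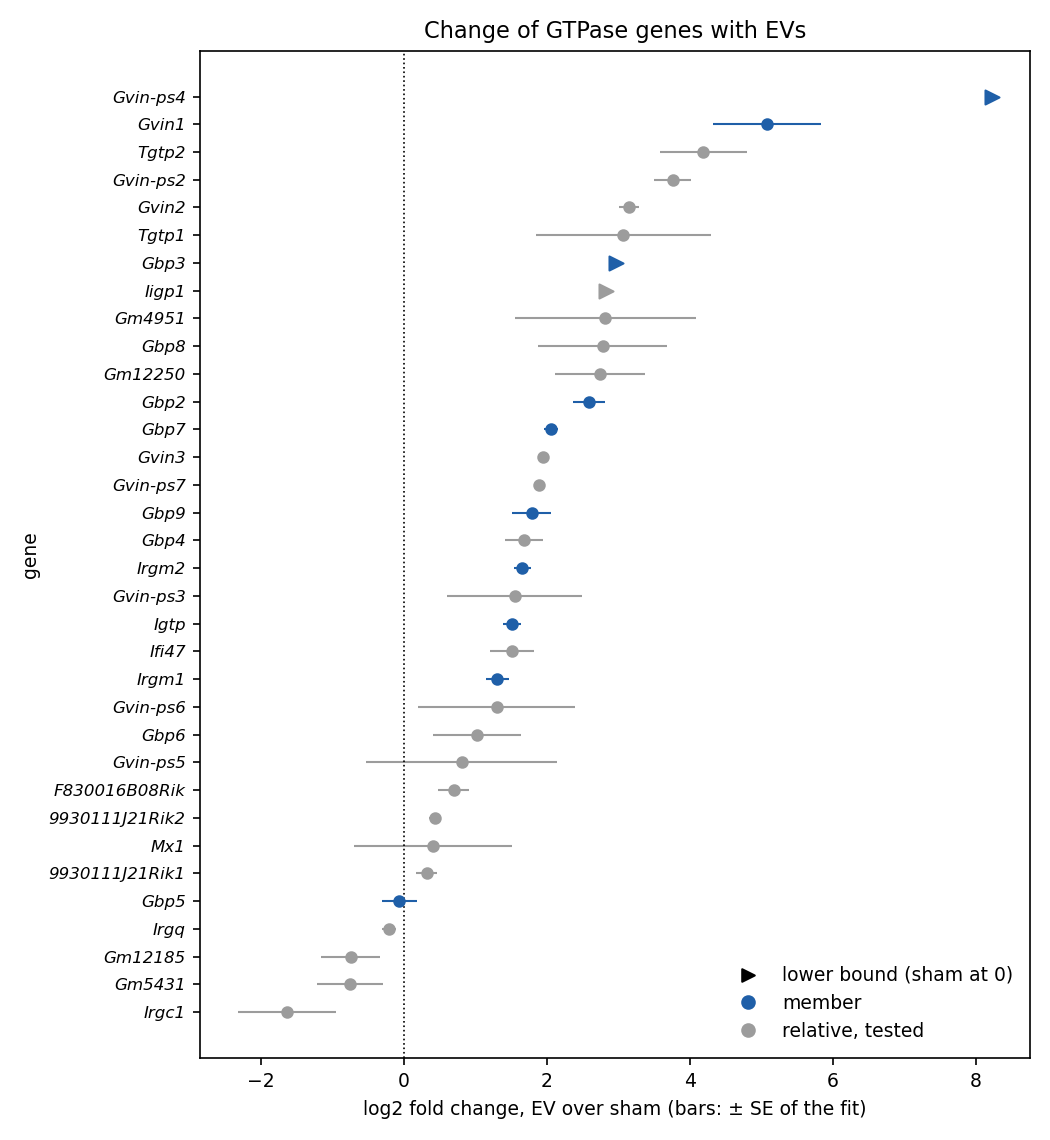
Log2 fold change of EV-treated over sham-treated cultures (horizontal axis) with the SE of the fit for the 10 members (blue) and the 24 tested relatives (grey), in order of size. Arrowheads are lower bounds for the 3 genes without a read in sham-treated cells. *Gbp5* is the one member near 0, at -0.06.

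Genes that act before and after interferon signalling were then described, to place the GTPases among them. The lists were written from general knowledge with earlier results known. The genes of interferon-gamma and interferon-beta themselves had no entry under their symbols in the count table and could not be tested. The receptor genes were expressed in both groups and none was called higher. *Ifngr1* (2951 ± 202 and 3310 ± 101.8 normalized counts, log2 0.17, adjusted p = 0.0907) and *Ifngr2* (2711 ± 161.9 and 3044 ± 100.7, log2 0.17, adjusted p = 0.0832), which encode the chains of the interferon-gamma receptor, did not pass. Of the type I interferon receptor genes, *Ifnar2* fell from 3827 ± 111 to 2411 ± 120.1 (log2 -0.67, adjusted p = 2.88e-05), while *Ifnar1* (log2 -0.34, adjusted p = 0.0133) did not pass.

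Of the transcription factor genes named here, *Irf1*, an early interferon target, rose from 2334 ± 245.1 to 4932 ± 53.7 (log2 1.08, adjusted p = 4.81e-06) and *Irf9* from 957.1 ± 61.48 to 2373 ± 34.21 (log2 1.31, adjusted p = 7.96e-07). *Stat2* rose by 0.48 on the log2 scale (adjusted p = 0.000996). *Socs1*, a feedback inhibitor that blocks JAK kinases, rose from 126.7 ± 45.79 to 4336 ± 329.4 (log2 5.10, adjusted p = 5.75e-08) and *Usp18*, which restrains the type I receptor, from 56.64 ± 39.42 to 355.9 ± 57.52 (log2 2.65, adjusted p = 0.000989). *Irf8*, an IRF of macrophages and dendritic cells that is also a target of interferon-gamma, fell from 949.8 ± 298.8 to 105.7 ± 45.78 (log2 -3.15, adjusted p = 5.01e-05). Most of the macrophage markers moved in the same direction. In all, 12 of 25 tested signalling genes were higher and 2 lower (10 and 4 with library totals), with a median log2 fold change of 0.38. Of all genes tested, 12.1% were higher and 11.6% lower.

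Of 34 tested other targets of interferon-gamma, 16 were higher and none lower, beside 12.1% higher and 11.6% lower of all genes. Without EV replicate 2 or EV replicate 3, 10 were higher, and with library totals 12. Some settings also called genes lower. With the replicate block 17 were higher and 3 lower, all 3 of them genes of MHC class II presentation. These were *H2-Aa*, *H2-Ab1* and *Cd74*, with log2 fold changes of -0.54, -0.91 and -0.88 in the main fit. DESeq2 and the fit without sham replicate 1 each called 1 gene lower. The median log2 fold change was 0.33, against -0.01 over all genes tested. The serpin *Serpina3g* went from 6.103 ± 5.325 to 1350 ± 208.2 (log2 7.90, adjusted p = 3.53e-07), with 28.4% of its words shared with other genes. The uridine phosphorylase *Upp1* rose from 146.4 ± 21.92 to 2304 ± 251 (log2 3.98, adjusted p = 2.99e-08) and *Ly6e* from 10918 ± 523 to 30967 ± 993.5 (2.84-fold, adjusted p = 6.31e-08). The 4 genes not tested, the chemokine genes *Cxcl9* and *Cxcl10* and the enzyme genes *Ido1* and *Nos2*, had at most 15.4 normalized counts in any culture.

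Of 37 tested genes stimulated by type I interferon, 16 were higher and 2 lower (13 and 3 with library totals), with a median of 0.59. The shares of all genes were 12.1% higher and 11.6% lower. *Zbp1*, a sensor of Z-form nucleic acids, rose from 44.8 ± 31.16 to 1049 ± 39.8 (log2 4.49, adjusted p = 9.31e-06), and *Oasl2*, of the oligoadenylate synthetase family, from 174.3 ± 58.13 to 679.5 ± 84.04 (log2 1.96, adjusted p = 7.33e-05). *Siglec1*, a macrophage sialic acid receptor, fell from 441.1 ± 113.5 to 64.61 ± 4.039 (log2 -2.77, adjusted p = 9.43e-06).

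Of 32 tested genes with which the GTPases work at vacuoles and inflammasomes, 3 were higher and 4 lower (2 and 7 with library totals), beside 12.1% higher and 11.6% lower of all genes. Their median log2 fold change was -0.04. The 7 calls fell to 4 without EV replicate 1, without EV replicate 2 or without sham replicate 3, and rose to 11 with DESeq2. *Trim21*, a ubiquitin ligase, rose from 460.7 ± 39.37 to 768.2 ± 26.26 (log2 0.74, adjusted p = 0.000473). *Gabarapl1*, an ATG8-family gene whose products direct IRG and GBP proteins to vacuoles, fell from 1612 ± 120.2 to 688.9 ± 57.58 (log2 -1.22, adjusted p = 6.24e-06), and the inflammasome sensor *Nlrp3* fell from 736.5 ± 79.98 to 495.4 ± 56.46 (log2 -0.57, adjusted p = 0.00621). *Gabarapl2*, the ATG8 gene most tied to GBP and IRGM2 function, read 1468 ± 17.18 and 1466 ± 25.92 (log2 -0.00, SE 0.0667, adjusted p = 0.98). *Casp4*, which encodes the caspase-11 that GBPs help to activate, read 101.6 ± 38.32 and 106.6 ± 10.23 (log2 0.07, SE 0.317, adjusted p = 0.883), a gene with few reads whose wide SE leaves a modest change undetectable.

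**Figure D5:**
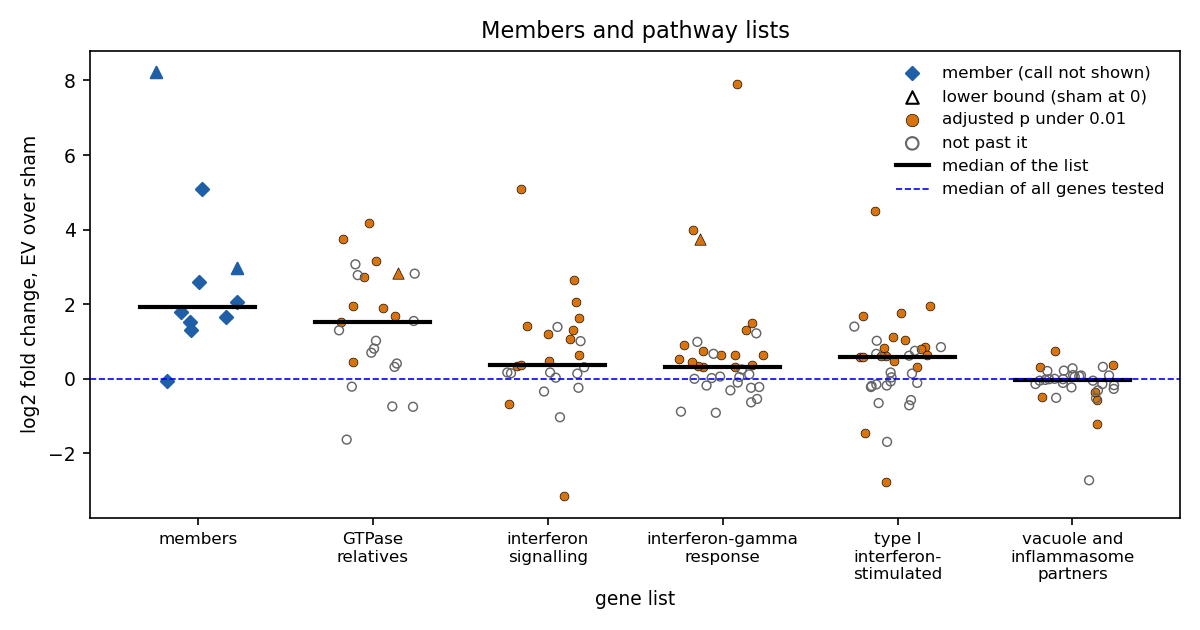
Log2 fold change of EV-treated over sham-treated cultures (vertical axis) for the tested genes of 6 lists, with each list's median as a black bar and the median of all genes tested (-0.01) as a dashed line. Orange points passed an adjusted p under 0.01, open points did not, triangles are lower bounds, and the members are in blue without their calls. Medians run from 1.93 for the members, which were chosen with this difference known, to -0.04 for the partners.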

How the data were processed

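RNA of 3 sham-treated and 3 EV-treated eosinophil cultures was analysed. Groups and replicate numbers came from the sample titles. The titles call the cultures biological replicates. Whether they came from separate mice is not given in the sources used here, and p-values measure the spread between these cultures.

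The authors checked reads with FastQC, trimmed them with Cutadapt and quantified them with Salmon. Per the submitters' processing notes the build was mm10. Versions, annotation and strandedness are not given in the sources used here. The deposited estimated counts need not be whole numbers. The authors' normalized counts and their table of fold changes and p-values were not used.

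After rounding, the counts were tested in R 4.3.3 with edgeR 4.0.16 (TMM scaling, filterByExpr, quasi-likelihood test, Benjamini-Hochberg adjustment) over 13498 genes, and called at an adjusted p under 0.01. DESeq2 1.42.0 and limma 3.58.1 were alternatives. Normalized counts are relative to the geometric mean library. Where no sham-treated culture had a read, folds are lower bounds against 3 counts per library. The tests were tried on simulated counts. DESeq2 there called more unchanged genes than its threshold allows, and the requirement was then set on edgeR, the test used for the results.

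Members and lists were chosen with earlier results of these data known. Named were every member, every called relative, the 3 most changed called genes with a mean normalized count over 50 of each other list, and a fixed set of interferon and partner genes. Not every gene under this rule is reported here. *Irgc1*, *Tgtp1*, *Gbp6*, *Gbp8*, *Irgq*, *Mx1*, *H2-Aa*, *H2-Ab1*, *Cd74* and the named macrophage, T cell and neutrophil markers were chosen after their values were seen. Gene positions, transcript lengths and shared 31-base words come from GENCODE vM21, and promoters from RefSeq. Protein sequences were not analysed here.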

Additional observations from a re-analysis of the deposited data

How the results depend on the processing

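In the alternatives tried, which were other tests and scalings, no filter on low counts, a larger prior count, the replicate block, other thresholds and leaving out each culture, no result changed sign among those called. Of the 10 members, 9 were called under the settings tried except with DESeq2, which lost *Gvin1*, and without EV replicate 2 or EV replicate 3, each of which lost *Gbp3* (8 each). The log2 fold change of *Gbp5* ranged from -0.23 to 0.16 and that of *Gvin1* from 4.43 to 7.02, with 1 sham-treated culture at 0. The fitted values of *Gbp3* (3.75 to 8.05) and *Gvin-ps4* (8.97 to 13.07) moved with the prior count and are no bounds. Library totals without TMM moved the median of all genes from -0.01 to -0.16, and *Ifngr1* and *Ifngr2* then came to 0.02 and *Casp4* to -0.08.

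The 3204 genes called in all became 4840 at an adjusted p under 0.05 and 1276 when a log2 change of 1 or more in size was also asked. The *Gvin* sum (log2 2.45) was 2.30 with library totals and 2.65 for *Gvin1*, *Gvin2* and *Gvin3* alone. With the fold threshold, calls fell to 9 of the 14 in interferon signalling, 5 of 16 for interferon-gamma response, 8 of 18 for type I genes and 1 of 7 partners. Partner calls were 11 with DESeq2 and 13 at an adjusted p under 0.05.

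Leaving out each culture in turn gave 2089 (without EV replicate 3) to 3531 genes called in all, 8 to 9 members, 6 to 9 relatives, 12 to 15 genes of interferon signalling, 10 to 19 of interferon-gamma response, 13 to 19 of type I genes and 4 to 8 partners. The median of the members stayed at 1.92 to 2.07 and the *Gvin* sum at 2.42 to 2.49.

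The replicate numbers shared by the groups were checked as pairs. Same-numbered cultures deviated together with r = 0.1167, 0.08461 and 0.03714 over 13498 genes, so the numbers were not taken as pairs, although 5 of 6 cultures correlated best with their own number. With the replicate block 3575 genes were called in all, with 9 members, 10 relatives, 16 genes of interferon signalling, 20 of interferon-gamma response, 20 type I genes and 9 partners, and the median of the members was 1.96. Depth limits *Gbp3*, *Iigp1* and other genes with few reads.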
